A study of Homo sapiens with 2 samples.

Results

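The estrogen receptors and the estrogen-related receptors are 5 genes, ESR1, ESR2, ESRRA, ESRRB and ESRRG, and all 5 were found by symbol among the 57820 genes of the count table. Total RNA of T47D, an established human line of estrogen receptor-positive luminal breast cancer, had been sequenced after ribosomal RNA depletion. The cells were labelled as carrying the ESR1 change Y537S, were kept without hormone and had received 25 nM of a control siRNA. This made 1 group of 2 replicate libraries with 41370662 and 37198274 reads on genes, so no comparison between conditions was possible. The sources used here do not give whether the line is a single clone, how many ESR1 copies carry the change, or whether the replicates were separate cultures. The spread between the libraries may therefore be technical.

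The estrogen receptors alpha (ESR1) and beta (ESR2) are nuclear receptors: on binding estradiol they pair, attach to DNA and recruit coactivators to target genes. The estrogen-related receptors alpha, beta and gamma (ESRRA, ESRRB, ESRRG) resemble them in their DNA-binding part but bind no estrogen. They act without a known natural hormone, through coactivators of the PGC-1 family, on genes of mitochondrial energy metabolism. In luminal breast cancer estrogen receptor alpha drives growth, and Y537S in its ligand-binding domain keeps it active without hormone.

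The reference coding sequence around the labelled codon is shown because it holds the change named in the labels and because the 5 receptors divide into 2 kinds there. Each line gives 33 bases, 5′ to 3′, from the main transcript of GENCODE release 29, with the codon that aligns with the codon changed in Y537S in capitals. It is codon 488 of ESR2, 411 of ESRRA, 443 of ESRRB and 424 of ESRRG.
ESR1: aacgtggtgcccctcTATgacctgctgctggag
ESR2: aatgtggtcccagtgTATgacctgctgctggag
ESRRA: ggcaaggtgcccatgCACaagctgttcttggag
ESRRB: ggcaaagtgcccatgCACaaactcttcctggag
ESRRG: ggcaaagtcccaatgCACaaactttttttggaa
The 2 estrogen receptors have a tyrosine codon at this place and the 3 estrogen-related receptors a histidine codon. ESR2 shares 28 of the 33 bases with ESR1, ESRRA 20, ESRRB 19 and ESRRG 15. Gene counts do not read this codon, so the level of ESR1 below sums reads of changed and unchanged copies.

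A stretch of the first zinc finger, the part of the receptor that reads DNA bases, is shown because all 5 proteins recognise related half-sites with it. Capitals mark the bases that are identical in all 5 genes.
ESR1: TGtGAgGgcTGcAAgGCcTTcTTc
ESR2: TGtGAaGgaTGtAAgGCcTTtTTt
ESRRA: TGtGAgGccTGcAAaGCcTTcTTc
ESRRB: TGcGAgGctTGcAAgGCcTTcTTc
ESRRG: TGtGAaGccTGcAAgGCaTTcTTc
Of these 24 bases, which begin at codon 202 of ESR1, 15 were the same in all 5 genes. ESR2 matched ESR1 at 19 bases, ESRRA at 22, ESRRB at 21 and ESRRG at 21. These counts of bases do not rank the proteins by likeness to ESR1. The bases at which ESR2 differs leave the encoded residues the same as in ESR1. The estrogen-related receptors have an alanine codon (GCC or GCT) where ESR1 and ESR2 have a glycine codon (GGC and GGA).

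The 5 receptors fell into 3 levels. ESRRA and ESR1 were well expressed, ESR2 was low, and ESRRG and ESRRB had next to no reads. A gene counted as detected when each library held at least 1 CPM of it, CPM being its reads scaled to the reads of that library. By that rule 3 of the 5 were detected, against 60.9% of 19263 protein-coding genes in the table. Levels between genes are compared in TPM, which divides reads by summed exon length and by library size.

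ESR1 (ENSG00000091831.17) lies on the plus strand of chromosome 6, from 151977826 to 152450754 in hg19. It had 9284 reads in replicate 1 and 7664 in replicate 2, the most of the 5. Its level was 25.7 TPM (95% counting interval 25.2 to 26.2) in replicate 1 and 21.2 TPM (20.7 to 21.7) in replicate 2, a mean of 23.5 ± 3.18 TPM (SD, n = 2). Replicate 1 was the higher library, and the 2 counting intervals did not overlap. Of the detected protein-coding genes 76.8% had a lower mean TPM.

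ESRRA (ENSG00000173153.9), on the plus strand of chromosome 11 from 64073044 to 64084215, is by far the most compact of the 5, with a span of 11.2 kb. It had 2274 and 1971 reads, which gave 28.3 TPM (27.2 to 29.5) in replicate 1 and 24.5 TPM (23.5 to 25.6) in replicate 2. The mean was 26.4 ± 2.68 TPM, with 79.4% of detected protein-coding genes below it. As for ESR1, replicate 1 was the higher library.

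ESR2 (ENSG00000140009.14), on the minus strand of chromosome 14 from 64550950 to 64804830, had 84 and 68 reads. These gave 0.339 TPM (0.271 to 0.420) and 0.275 TPM (0.213 to 0.348), a mean of 0.307 ± 0.0458 TPM. The intervals overlapped. ESR2 passed the detection rule with 2.03 and 1.83 CPM, yet only 0.801% of detected protein-coding genes had a lower TPM.

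ESRRG (ENSG00000196482.12), known for high levels in heart, kidney and brain, spans 634.5 kb on the minus strand of chromosome 1, from 216676588 to 217311097. It had 6 reads in replicate 1 and 7 in replicate 2, or 0.0208 TPM (0.00764 to 0.0453) and 0.0243 TPM (0.0098 to 0.050). ESRRB (ENSG00000119715.10), known from pluripotent stem cells and the inner ear, lies on the plus strand of chromosome 14, from 76776957 to 76968178. It had 2 reads in replicate 1, which was 0.0185 TPM with an interval of 0.00224 to 0.0668, and none in replicate 2. For a count of 0 the floor was set at 3 reads, which is 0.0277 TPM in that library. Both genes were thus below 1 CPM in each library.

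**Figure D1:**
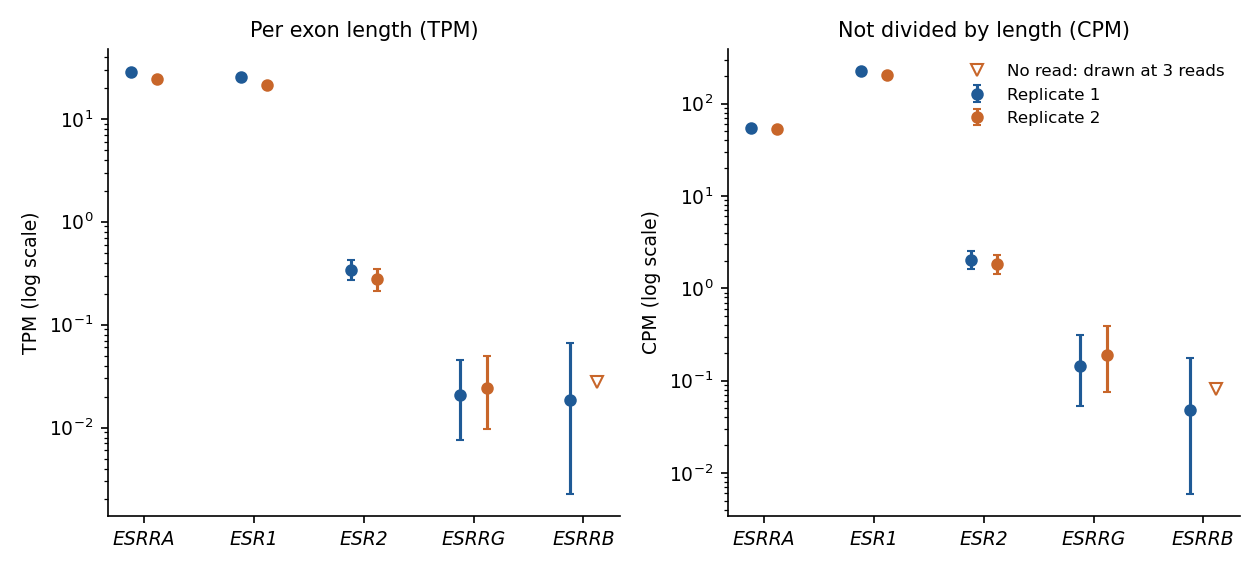
Levels of the 5 receptor genes in each library, in TPM (left) and in CPM (right), both on a log scale. Points are single libraries, bars are exact Poisson 95% counting intervals, and the open triangle is ESRRB in replicate 2, which had no read and is drawn at 3 reads. ESRRA and ESR1 lie at similar height in TPM, while in CPM ESR1 is the higher at 224 and 206 against 55.0 and 53.0.

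The order in TPM was ESRRA, ESR1, ESR2, ESRRG and ESRRB. A step between neighbours was called when the counting interval excluded equality in both libraries and the ratio exceeded the replicate spread. That spread was the 95th percentile of differences between replicates among genes with CPM like that of the lower gene. By this rule ESR1 lay above ESR2, and ESR2 above ESRRG. ESRRA was not set apart from ESR1, nor ESRRG from ESRRB.

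ESRRA stood 1.10-fold above ESR1 in replicate 1 (1.05 to 1.15) and 1.16-fold in replicate 2 (1.10 to 1.22). The mean log2 ratio of 0.17 ± 0.05 lay below the spread of 0.36 for genes of 10 to 100 CPM. The direction rested on gene length. ESR1 has 13629 annotated exon bases and ESRRA 3030. In CPM, with no division by length, ESRRA stood below ESR1, with a log2 ratio of -1.99. With the length of 1 main transcript each, 6458 bases for ESR1 and 2215 for ESRRA, the log2 ratio of ESRRA to ESR1 was -0.45, beyond the spread. Here and below, main-transcript lengths replace the length alone: all reads of each gene are kept, also those outside that transcript. Which of the 2 receptors has more transcripts cannot be told from these counts.

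ESR1 exceeded ESR2 75.7-fold in replicate 1 (61.09 to 95.02) and 77.2-fold in replicate 2 (60.8 to 99.5). ESRRA exceeded ESR2 83.4-fold (67.1 to 105) and 89.3-fold (70.1 to 115). Both ratios were far beyond the spread of 0.83 on the log2 scale for genes of 1 to 10 CPM. Their size depended on the length used. With main-transcript lengths, 2060 bases for ESR2, the mean ratios to ESR2 were 35.6 for ESR1 and 26.1 for ESRRA.

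ESRRA was the dominant estrogen-related receptor. It stood 1361-fold above ESRRG in replicate 1, with an interval of 624 to 3712, and 1011-fold in replicate 2 (490 to 2518). Against the 2 reads of ESRRB in replicate 1 the ratio was 1533, with an interval of 424 to 12662. In replicate 2 ESRRB was without reads. With the floor of 3 reads assumed there the ratio was 886, and the counting interval began at 719 with no upper limit. With main-transcript lengths the mean ratio to ESRRG was 766, and in CPM 327.

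ESR2 stood 16.3-fold above ESRRG in replicate 1 (7.19 to 45.7) and 11.3-fold in replicate 2 (5.21 to 29.2). The mean log2 ratio was 3.76 ± 0.37 against a spread of 2.51, and it no longer passed at the 99th percentile of replicate differences, 4.55. ESR2 exceeded ESRRB 18.4-fold in replicate 1 (4.93 to 154). In replicate 2, where ESRRB was without reads, the ratio was 9.91 with the floor of 3 reads assumed. The counting interval there began at 7.85 with no upper limit. Whether ESR2 exceeded ESRRB by more than the spread of 3.55 on the log2 scale therefore depends on that floor. With main-transcript lengths the mean ratio of ESR2 to ESRRG was 29.4. ESRRG and ESRRB could not be ordered: in replicate 1 their ratio was 1.13 with an interval of 0.201 to 11.4.

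Parts of the TPM scale differed between the libraries. Protein-coding genes, those of the mitochondrion included, held 311104 of 1000000 TPM in replicate 1 and 277626 in replicate 2. Levels in TPM over all genes, and gaps in them between the libraries, therefore also reflect the other rows of the table. When TPM was computed over the protein-coding genes of the nucleus, ESR1 had 86.2 and 80.3 TPM (83.2 ± 4.18) and ESRRA 94.9 and 92.8 TPM (93.9 ± 1.48). ESR2 had 1.14 and 1.04 TPM on that scale. Replicate 1 was again the higher library for each of these 3 genes.

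Each gene's reads were also set against each other between replicates 1 and 2, by a two-sided exact binomial test on TMM-scaled library sizes with Benjamini-Hochberg adjustment. The test compares 2 libraries, not conditions. Of the 14668 genes tested, 40.0% were called at an adjusted p under 0.05, and of the 3 receptor genes tested 1 was called. ESR1 was lower in replicate 2, with a log2 difference of -0.10 and an adjusted p of 2.88e-05 by this exact test. Calls were thus common between these libraries, and the size of the ESR1 difference lay below the spread of 0.29 for genes of 100 CPM or more. ESR2 had a log2 difference of -0.13 (adjusted p = 0.737, exact test) and ESRRA of -0.032 (adjusted p = 0.600, exact test). ESRRB and ESRRG were left out by the filter, a mean of at least 1 CPM. Without that filter neither was called (adjusted p = 0.695 for ESRRB and 0.922 for ESRRG, exact test).

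**Figure D2:**
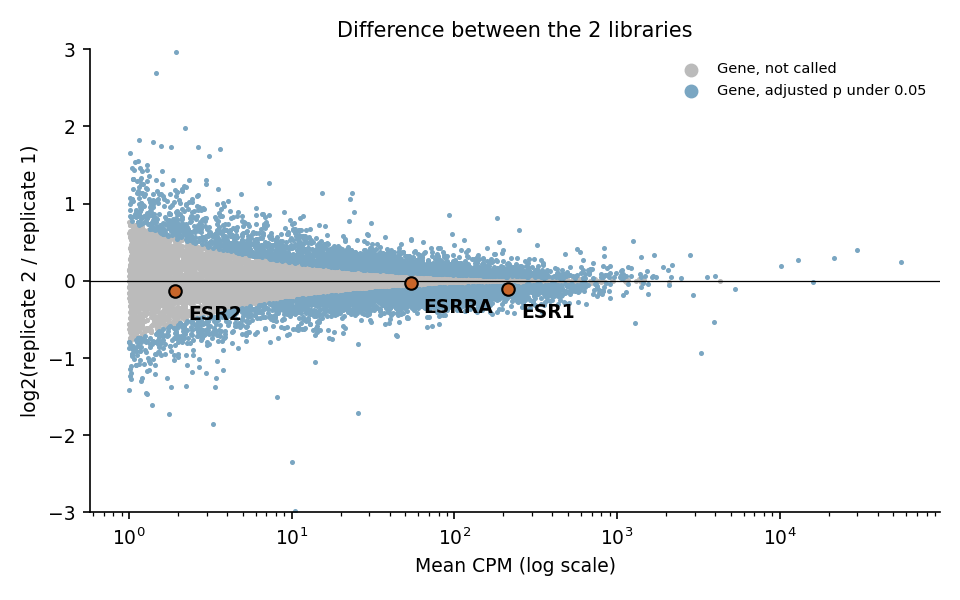
Difference between the libraries (log2 of replicate 2 over replicate 1, TMM-scaled) against mean CPM on a log scale, for the 14668 genes tested. Small points are genes, blue where the adjusted p was under 0.05. The 3 labelled receptor genes lie close to 0, with ESR1 at -0.10, and 4 genes lie outside the plotted range.

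How reads could be assigned differed between the members. ESRRA shares 284 of its exon bases (9.37%) with TRMT112, a gene on the opposite strand with 7199 and 6777 reads, whose end it meets. Reads were counted without strand, and by default a read that fits 2 genes is not counted. Of the 2166 windows of 50 bases along the main ESRRA transcript, 404 (18.7%) occur in transcripts of other genes on either strand. The windows shared with TRMT112 can cover the same bases as the exon overlap, so the 2 shares do not add up. These were TRMT112 with 230 windows and the processed pseudogenes ESRRAP1 with 163 and ESRRAP2 with 65, some windows occurring in more than 1 of them. The pseudogene rows themselves held few reads, 6 and 1 on ESRRAP1 and 9 and 9 on ESRRAP2. The level of ESRRA may thus be too low, which was not tested. None of the 50-base windows of the main transcripts of ESR1, ESR2, ESRRB and ESRRG occurs in another gene.

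ESR1 and ESR2 each overlap a nesprin gene on the opposite strand. The last 7936 bases of ESR1 lie within SYNE1, with 4354 of its exon bases (31.9%), but in no exon of SYNE1. SYNE1 was low, at 0.506 and 0.423 TPM. ESR2 lies partly within SYNE2, which had 32.8 and 27.4 TPM. There 821 exon bases of ESR2 (8.79%) fall within the SYNE2 gene, and unspliced SYNE2 RNA over them would be counted as ESR2. How many of the 84 and 68 reads of ESR2 arose that way was not tested. A further 523 exon bases of ESR2 (5.60%) are shared with 1 other row of the table, which had 48 and 40 reads.

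The genes beside each receptor were mostly expressed, including those beside the 2 receptors with next to no reads. Within 1 Mb of ESRRB 20 of 25 protein-coding genes were detected, and within 1 Mb of ESRRG 3 of 4. The nearest protein-coding genes of ESRRB were GPATCH2L with 7.93 and 6.78 TPM and VASH1 with 1.65 and 1.28 TPM. Beside ESRRG, GPATCH2 had 9.20 and 7.72 TPM. Beside ESR1, CCDC170 had 7.63 and 6.42 TPM, below ESR1 itself. ESRRA has a testis ion channel gene, CATSPERZ, 0.802 kb away, which had 1 read and none, while TRMT112 on its other side had 167 and 157 TPM. MTHFD1, the neighbour of ESR2 at higher coordinates, had 48.8 and 41.8 TPM.

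Among the human nuclear receptor superfamily ESRRA and ESR1 ranked 3 and 4 in mean TPM. Of its 48 genes 47 were matched by symbol, NR2E3 being the exception, and 32 were detected. The progesterone receptor PGR led with 216 and 190 TPM, followed by the orphan receptor NR2F6 with 39.6 and 35.5. ESRRA held 5.73% and 5.62% of the summed nuclear receptor TPM in the 2 libraries and ESR1 5.20% and 4.86%. In CPM their order turned, with 1.71% and 1.69% for ESRRA and 6.97% and 6.56% for ESR1. ESR2 held 0.0687% and 0.0629%.

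In TPM ESR1 could not be set apart from its next neighbours. The retinoic acid receptor RARG, with 23.2 and 20.1 TPM, differed from both ESR1 and ESRRA by less than the replicate spread. NR2F6 stood 1.60-fold above ESR1 and 1.42-fold above ESRRA, both beyond the spread. The liver X receptor gene NR1H2, with 18.9 and 17.1 TPM, lay 1.30-fold below ESR1, just beyond it, and 1.47-fold below ESRRA. RARA, a receptor for retinoic acid and itself an estrogen target, had 13.9 and 15.2 TPM and lay 1.61-fold below ESR1. These steps rest on the annotated exon lengths, and main-transcript lengths were not tried for them. In CPM the ranks shifted to 2 for ESR1 and 8 for ESRRA. There NR2F6 (67.8 and 67.6 CPM) and RARG (76.1 and 73.2) stood below ESR1 (224 and 206). Both stood above ESRRA (55.0 and 53.0).

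ESR2 ranked 33 in mean TPM, next to receptors of similar low level. NR1D1 with 0.572 and 0.435 TPM, HNF4G with 0.385 and 0.541, and NR4A2 with 0.352 and 0.276 stood above it, all by less than the spread. RORA with 0.199 and 0.166 TPM and NR4A3 with 0.0837 and 0.0418 stood below it and were not set apart either. NR1I2, with 3 and 12 reads, was lower than ESR2 beyond the spread. ESRRG ranked 38 and ESRRB 40, among PPARG, NR1H4 and others with a handful of reads.

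No read was found on 7 nuclear receptor genes: NR2E1, HNF4A, RXRB, RXRG, NR5A1, NR0B1 and NR0B2. For RXRB this was not read as absence of expression, since 28 of the 49 protein-coding genes within 1 Mb of it also lacked reads and 5 were detected. Near ESR1, on the other arm of chromosome 6, 10 of 13 were detected.

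**Figure D3:**
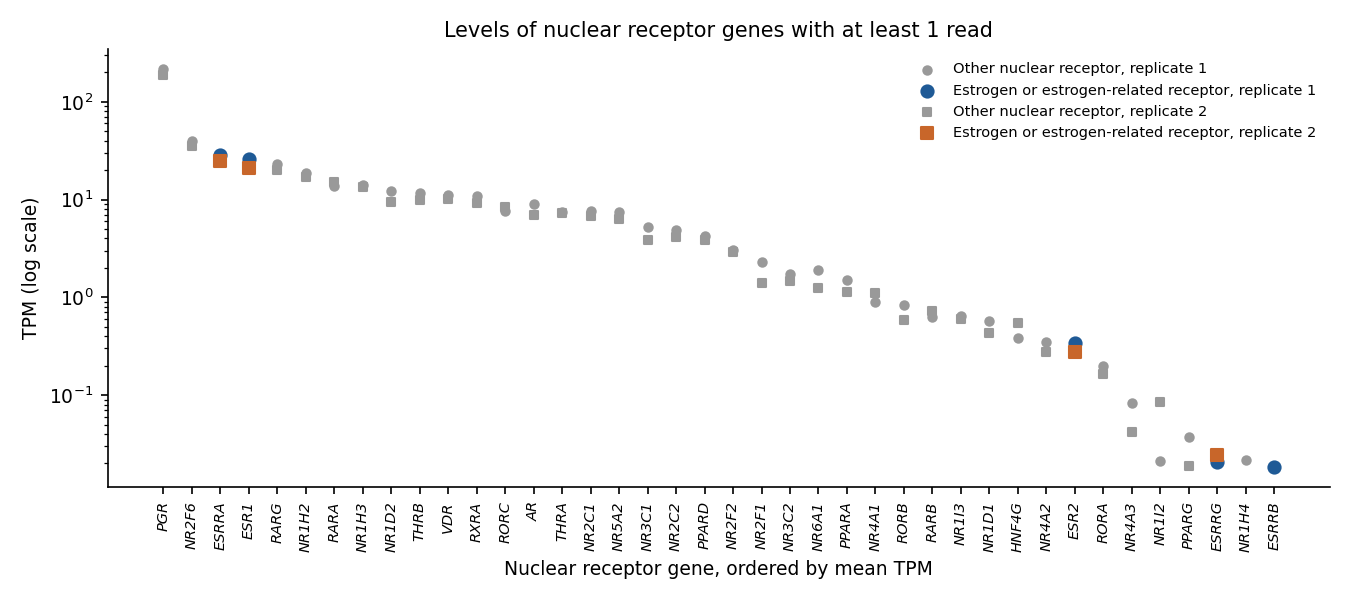
Levels of the nuclear receptor genes with at least 1 read, in TPM on a log scale, ordered by their mean; circles are replicate 1 and squares replicate 2, and a library without reads has no symbol. ESRRA and ESR1 (coloured) sit at places 3 and 4 behind PGR and NR2F6, ESR2 at place 33, and ESRRG and ESRRB at places 38 and 40.

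Partners and targets of the receptors give the setting of these levels. Each list is described by how many genes were detected and by its median. The lists were chosen with earlier results of these data known, so these shares are descriptions and test nothing. The closer comparison is with protein-coding genes, of which 60.9% were detected, with medians of 2.42 and 2.19 TPM. Among all genes, of every type, 24.5% were detected, with medians of 0.0171 and 0 TPM. All 12 chaperones and cochaperones of steroid receptors were detected, with medians of 121 and 86.6 TPM. HSPA8 had 1521 and 929.7 TPM, HSP90AB1 881 and 759, and HSP90AA1 434 and 364.

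Genes that make and inactivate estrogen were mostly low. Of 9 genes for estrogen synthesis, inactivation, transport and membrane reception 4 were detected, with medians of 0.281 and 0.575 TPM. The steroid sulfatase STS had 1.59 and 0.821, and HSD17B1, which reduces estrone to estradiol, 0.920 and 0.933. Aromatase (CYP19A1) and UGT2B7 had no reads. The membrane estrogen receptor GPER1 had 0.635 and 0.874 TPM, above ESR2 in both libraries. In CPM, at 1.28 and 1.96, it was below ESR2 in replicate 1 and above it in replicate 2.

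All 6 transcription factors that share sites with estrogen receptor alpha were detected, with medians of 52.0 and 49.1 TPM. SPDEF (146 and 146 TPM), FOXA1 (82.3 and 81.9) and GATA3 (66.0 and 61.6) were the highest. Their order against ESR1 depended on length: in TPM all 3 stood above it, while in CPM SPDEF (179 and 199) and GATA3 (138 and 143) stood below its 224 and 206. FOXA1, with 217 and 240 CPM, was below ESR1 in replicate 1 and above it in replicate 2. All 15 estrogen target genes were detected, with medians of 81.4 and 77.7 TPM, led by AGR2 (1090 and 1061), XBP1 (750 and 696) and IGFBP4 (348 and 408).

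Of 11 coregulators of the estrogen-related receptors 9 were detected, with medians of 9.18 and 7.82 TPM. The corepressor NRIP1 had 38.3 and 33.6 TPM, NCOA3 35.4 and 28.8 and NCOA2 20.0 and 17.3. The 3 coactivators of the PGC-1 family differed widely: PPRC1 had 10.0 and 11.1 TPM, PPARGC1B 1.64 and 1.38, and PPARGC1A 0.334 and 0.201. The muscle regulator PERM1 and the corepressor PROX1 were the 2 below detection. Of 10 genes known as targets of these receptors 9 were detected, with medians of 41.6 and 31.8 TPM. The ATP synthase subunit ATP5F1B had 1010 and 876 TPM, COX5B of the respiratory chain 132 and 119, and NDUFA4 128 and 119. CPT1B, the muscle form of a fatty acid importer, was below detection with 29 and 32 reads.

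Markers of cell type matched the labelled line. All 6 luminal markers were detected, led by KRT19, KRT8 and KRT18, against 2 of 6 basal, 1 of 6 mesenchymal, 1 of 5 immune and 0 of 3 endothelial markers. The summed TPM was 2305 and 2164 for the luminal list. It was 3.47 and 2.54 for the basal, 1.08 and 1.19 for the mesenchymal, 0.873 and 1.44 for the immune and 0 and 0.0456 for the endothelial list. ZEB2, PDGFRB, CD3E, CD68, CDH5 and KDR had no reads in either library.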

How the data were processed

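The authors deposited gene counts of reads on exons (featureCounts 2.0.2, GENCODE release 19, per the file headers), as whole-number read counts without normalization. The recorded call set no strand, pairing, multimapping or overlap option. HISAT2 and hg19 (GRCh37) are named in the submitters' processing notes. The 2 columns used carry the line, the residue and the replicate number of the samples, and the match rests on these, since their names do not repeat the siRNA. Another 8 columns match no sample described here and were not used. CPM and TPM were computed over all 57820 genes with the deposited exon lengths. Symbols came from the supplied identifier table (89.9% matched) and gene types and transcripts from GENCODE 29, whose coordinates were not used. Of 143 list entries 141 matched, PECAM1 and NR2E3 being the exceptions.

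Intervals are exact Poisson, or exact conditional binomial for ratios, at 95%. They cover counting error only, since reads are not independent molecules and mates may be counted separately. Replicate differences used 0.5 added reads per gene and the classes divided at 0.1, 1, 10 and 100 CPM. TMM factors came from edgeR 4.0.16, size factors from DESeq2 1.42.0 and binomial tests from SciPy 1.17.1. The test was checked on simulated Poisson counts. These hold no variation between libraries beyond counting, so the check does not cover the spread of the real libraries. Codons were aligned with Biopython 1.88. Named genes were all members, the 5 highest nuclear receptors, the 3 next above and below each detected member, the 3 highest and the unread genes of each list, and the nearest coding genes, some of which are not reported here. PPARGC1A, PPARGC1B, PPRC1, PERM1, PROX1, CPT1B, GPER1 and the receptors beside ESRRG and ESRRB were named after their values were seen. Members and lists were chosen with earlier results of these data known.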

Additional observations from a re-analysis of the deposited data

How the results depend on the processing

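No paired analysis was possible because there was 1 group. The log2 ratio of ESRRA to ESR1 turned from 0.17 to -1.99 in CPM and to -0.45 with the length of the main transcript, an alternative chosen after seeing the data; both were beyond the spread. The calls of ESR2 over ESRRG (3.76) and of ESR2 over ESRRB (3.75) ended at the 99th percentile of replicate differences, and the second also without replicate 1, the ratios leaving out 1 replicate being 3.31 and 4.20. ESRRB had no read in replicate 2, so 3.75 and 3.31 rest on an assumed 3 reads there and are not measured ratios. In CPM the rank among nuclear receptors moved to 2 for ESR1, 29 for ESR2, 8 for ESRRA, 37 for ESRRG and 39 for ESRRB. Leaving out 1 replicate put ESRRB at 39 or 40 and ESRRG at 37 or 39. Ratios of ESRRA or ESR1 to ESR2, ESRRG and ESRRB kept direction and call under each alternative run, though length and CPM moved their size, that of ESR1 to ESR2 between 35.6 and 112. The number of genes called between the libraries stayed within 1.5 times of 5860 under the other scalings and without a filter on low counts, where it was 6470 of 31838 genes, or 20.3% in place of 40.0%. Depth limits ESRRB and ESRRG, whose 2 and 13 reads in all give no order.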

Other observations

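The receptor genes differed in the number of start sites annotated by RefSeq (GRCh38.p14) and in the CpG dinucleotides around them. In windows from 250 bases before to 50 bases after a start, all promoters in the table had a median of 14 CpG (quartiles 4 and 28, 35116 windows). ESRRA has 1 listed start, with 39 CpG. The 6 windows of ESR1 held 4 to 17 CpG, the 5 of ESR2 3 to 34, the 3 of ESRRB 4 to 8 and the 8 of ESRRG 0 to 30. The half-site AGGTCA, searched on both strands, was in 3 of the windows of ESR2 and 2 of those of ESRRG, and in none of those of ESR1, ESRRA and ESRRB, against 13.8% of all windows. Windows of 1 gene can overlap, which starts these cells use was not analysed here, and a match is a description and not a bound site.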
